A study of Mus musculus with 9 samples.

Results

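De novo lipogenesis is the route by which the liver builds fatty acids from the carbon of sugars and acetate. The genes described are 10 genes at its core, Srebf1, Mlxipl, Slc25a1, Acly, Acss2, Acaca, Acacb, Fasn, Me1 and Thrsp. They were picked by symbol for their known roles, and a symbol counted when its value was above 0 in at least 1 liver. All 10 did so, of 23183 gene symbols in the tables, and each of the 10 was above 0 in all 9 livers. The study gave obese mice a polymethoxyflavone-rich fraction (PRF), a hexane fraction of Citrus sunki leaves, and sequenced liver RNA. Each of the 9 livers came from a male C57BL/6J mouse, an inbred laboratory strain, at postnatal day 100, and gave 1 library. The ND group (mice 6, 7 and 9) ate a normal diet with 14% fat for 10 weeks. The HFD group (mice 1, 2 and 3) ate a high-fat diet with 60% fat for 10 weeks. The PRF 50 group (mice 3, 9 and 10) ate the same high-fat diet and was given 50 mg/kg of PRF by mouth daily during the last 5 weeks. The high-fat diet also holds less carbohydrate than the normal diet, so fat and carbohydrate cannot be told apart in HFD vs. ND. All groups had fasted for 8 h when blood was taken at the collection of the tissues. An oral glucose tolerance test was also done on the final experimental day, and its time relative to the collection is not stated. It is not stated whether the ND and HFD mice were given the carrier in which PRF was diluted.

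In lipogenesis, citrate leaves the mitochondria and is split in the cytosol to acetyl-CoA, acetyl-CoA carboxylase (ACC) turns acetyl-CoA into malonyl-CoA, and fatty-acid synthase joins these units into palmitate at the expense of NADPH. In liver the pathway is known to be switched on by feeding, through insulin and SREBP-1c and through glucose and ChREBP, and to be low in the fasted state. Thyroid hormone and the oxysterol receptor LXR are also known to raise several of its genes.

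The tables give 1 value per gene and mouse on a log2 scale, read as log2(FPKM + 1), where FPKM are fragments per kilobase of transcript and mapped fragments, which the authors normalized further between mice. Levels below are FPKM, recovered from these values, and can be compared between genes since they are per length. Fold changes are differences of group means of the log2 values, and the added 1 makes them smaller for genes with low levels. Read counts were not used here, so absolute depth, and with it the error from counting few fragments, is unknown. From the low values, the depth relative to HFD mouse 1 was 1.06, 1.15 and 1.11 in ND mice 6, 7 and 9, 1.17 and 1.60 in HFD mice 2 and 3, and 0.981, 1.51 and 0.962 in PRF 50 mice 3, 9 and 10. The ranges of relative depth overlapped between the 3 groups.

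The livers were checked against 12 hepatocyte markers. Of these, 11 had a row in the tables, the most abundant was Apoa1 with a mean of 9561 FPKM, and albumin (Alb) was listed at 0 in all 9 livers. A value of exactly 0 in these tables is thus no proof of a missing transcript. The markers summed to 31021, 22773 and 20642 FPKM in ND mice 6, 7 and 9, to 29498, 23189 and 22339 FPKM in HFD mice 1, 2 and 3, and to 25127, 24699 and 24798 FPKM in PRF 50 mice 3, 9 and 10. The sums of the 3 groups overlapped. Fat cells also express these 10 lipogenesis genes, and of 10 adipocyte markers Lep and Plin1 were listed at 0 in all mice and Adipoq and Retn stayed under 1 FPKM in every liver. The most abundant of them was Car3 with a mean of 1680 FPKM, a gene that hepatocytes express as well. The sums of the adipocyte markers, nearly all Car3, were 2490, 2073 and 1816 FPKM in the ND mice, 2252, 1760 and 2452 FPKM in the HFD mice, and 794, 835 and 890 FPKM in the PRF 50 mice. Cfd and Cidea, chosen after their values were seen, were highest in HFD mice 2 and 3. As log2(FPKM + 1), Cfd was at 2.86 and 3.85 there and at most 1.37 in the other 7 livers, and Cidea was at 0.97 and 1.59 there and at most 0.33 in the others. Of the other markers, Fabp4 and Lipe were also highest in HFD mice 2 and 3, and Adipoq was above 0 only there. Adrb3 was highest in PRF 50 mouse 9 (1.05), with 0.41 and 0.62 in HFD mice 2 and 3. Car3 was highest in ND mouse 6 (11.27), and Retn was above 0 only in ND mouse 7.

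All 12 Kupffer cell and macrophage markers had a row and none was at 0 in all mice, and the most abundant was Cd5l with a mean of 54.1 FPKM. They summed to 109, 198 and 244 FPKM in ND mice 6, 7 and 9, 129, 203 and 205 FPKM in HFD mice 1, 2 and 3, and 686, 414 and 439 FPKM in PRF 50 mice 3, 9 and 10. All 3 PRF 50 livers lay above the other 6. For PRF 50 vs. HFD, 10 of the 12 markers passed the limma test described next, all higher, against 3.59% of all tested genes. Their median log2 fold change was 1.43. Those with the smallest p were Timd4 (1.49, adjusted p = 0.0150), Vsig4 (1.27, adjusted p = 0.0182) and C1qb (1.45, adjusted p = 0.0237). The study already reported several of these markers, Vsig4 and C1qb among them, as changed between these livers. The list was chosen with earlier results known, so the count is no independent result. The number that passed was 7 without HFD mouse 1, 1 without HFD mouse 2, 0 without HFD mouse 3, 1 without PRF 50 mouse 3, 9 without PRF 50 mouse 9 and 5 without PRF 50 mouse 10, while all 12 had a positive fold change each time. Vsig4 was not called with all 9 mice in 1 fit (0.0512), nor C1qb with no minimum level (0.0568). In bulk liver, fewer cells of a type and less RNA per cell cannot be told apart. The part of the macrophage RNA in the values of the lipogenesis genes was not tested. For PRF 50 vs. ND, limma called 0 of the 12, while 12 had an unadjusted p under 0.05 and the median was 1.34, and 2 were called without ND mouse 9 and 1 without PRF 50 mouse 9. Timd4 (1.15, adjusted p = 0.0602) was called there with all 9 mice in 1 fit (0.0382). Between HFD and ND, limma called 0 of the 12, 0 had an unadjusted p under 0.05 (2 without ND mouse 6) and the median was 0.01. That median was -0.29 without ND mouse 6, 0.08 without ND mouse 7, 0.21 without ND mouse 9 or HFD mouse 1, -0.11 without HFD mouse 2 and -0.09 without HFD mouse 3.

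The marker sums of the smaller lists ran from 18.1 to 79.4 FPKM for 7 sinusoidal endothelial markers (most abundant Clec4g, mean 30.5 FPKM), from 60.7 to 130 FPKM for 7 stellate cell markers (Dcn, 77.3 FPKM) and from 25.6 to 41.5 FPKM for 5 cholangiocyte markers (Spp1, 28.8 FPKM). The endothelial and stellate sums overlapped between the groups, while the cholangiocyte sums were 41.5, 31.7 and 36.4 FPKM in the PRF 50 mice, above the 26.0, 27.0 and 28.5 FPKM of the ND mice. Krt7 and Epcam stayed under 1 FPKM in every liver. Of the 5 cholangiocyte markers, only Spp1 averaged 1 FPKM or more in the mice of PRF 50 vs. HFD (0.29, adjusted p = 0.360). Spp1 had 0.19 without HFD mouse 3 and 0.45 without HFD mouse 2, where its unadjusted p was under 0.05. Limma called 0 of the endothelial, stellate and cholangiocyte markers in each of the 3 comparisons. For PRF 50 vs. HFD, 1 endothelial marker (Cdh5, 0.82, adjusted p = 0.179, with 0.48 without HFD mouse 1) and 2 stellate markers (Col1a1, -0.46, adjusted p = 0.162, and Col3a1, -0.43, adjusted p = 0.180) had an unadjusted p under 0.05. The endothelial count was 2 without HFD mouse 3 and 0 without PRF 50 mouse 3 or 10, and the stellate count was 0 without HFD mouse 2 or PRF 50 mouse 3. Between HFD and ND, 2 endothelial markers (4 without HFD mouse 3, 1 without ND mouse 9, 0 without ND mouse 7 or HFD mouse 1), 2 stellate markers (1 without HFD mouse 2) and 0 cholangiocyte markers had an unadjusted p under 0.05, and 1 stellate marker was called without ND mouse 9 and 1 without HFD mouse 1. Col1a1 (0.77, adjusted p = 0.0798) was called there with all 9 mice in 1 fit (0.0408). Against ND, these counts in the treated mice were 0 (1 without PRF 50 mouse 10), 0 (2 without ND mouse 9, 1 without PRF 50 mouse 3) and 1 (Spp1, 0.45, adjusted p = 0.191).

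Limma called 0 of 10 tested hepatocyte markers in each comparison, and 1 had an unadjusted p under 0.05 for PRF 50 vs. HFD (Ttr, -0.62, adjusted p = 0.0865), or 5 without HFD mouse 1. Ttr was called with a minimum of 10 FPKM (0.0325), after quantile normalization (0.0387) and without a trend (0.0280). For HFD vs. ND and PRF 50 vs. ND, 2 and 0 hepatocyte markers had an unadjusted p under 0.05. The first was 1 without ND mouse 7 or HFD mouse 3 and 0 without HFD mouse 2, with 1 marker called without HFD mouse 1, and the other was 2 without ND mouse 6 and 1 without ND mouse 9. Car3 was called lower, by 1.36 (adjusted p = 0.0147) for PRF 50 vs. HFD and by 1.35 (adjusted p = 0.0217) for PRF 50 vs. ND, the 1 called adipocyte marker of 4 and of 3 tested. Of the 4 tested in PRF 50 vs. HFD, 2 had an unadjusted p under 0.05, Car3 and Cfd (-2.14, adjusted p = 0.155), and 1 without HFD mouse 2, HFD mouse 3 or PRF 50 mouse 10. The count of called adipocyte markers for PRF 50 vs. HFD was 2 without HFD mouse 1 and 0 without HFD mouse 3 or PRF 50 mouse 3, and that for PRF 50 vs. ND was 0 without ND mouse 7, PRF 50 mouse 3 or PRF 50 mouse 9, and Car3 was not called there with no minimum level (0.101). With limma, the diets gave 0 called of 4, and 0 had an unadjusted p under 0.05, with 1 called and 3 under 0.05 without HFD mouse 1. The part of fat cells in the values of the lipogenesis genes was not tested.

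Differences between groups were tested over all genes that averaged 1 FPKM or more in the 6 mice compared, with limma, a linear model that shares the estimate of variance between genes, and a gene is called when its Benjamini-Hochberg adjusted p is under 0.05. PRF 50 vs. HFD asks what the fraction changed in mice on the same diet. Of 10084 genes tested, 362 were called, 218 lower and 144 higher in the PRF 50 group, which is 3.59% of the genes. Among the 10 lipogenesis genes 2 were called, Thrsp and Me1, both lower. The number of all genes called was 215, 31 and 15 without HFD mouse 1, 2 or 3, and 40, 242 and 168 without PRF 50 mouse 3, 9 or 10. Of the 10 genes, 1 was called without HFD mouse 2 (Me1), 0 without HFD mouse 3 and 1 without PRF 50 mouse 3 (Thrsp). At an unadjusted p under 0.05 there were 4 of 10, against 20.2% of all tested genes, and this was 2 without HFD mouse 1, HFD mouse 2 or PRF 50 mouse 10 and 6 without HFD mouse 3. By the criteria of the study, an unadjusted p under 0.05 with a fold above 2, there were 2 of 10 (3 without HFD mouse 3), against 2.10%. The 3 PRF 50 values lay below the 3 HFD values for the same 2 genes, against 15.3% of all tested genes. That count became 6 without HFD mouse 3 and 4 without PRF 50 mouse 3 or PRF 50 mouse 9. The fold change was below 0 for 9 of 10 (7 of 10 after quantile normalization), against 53.0%, and the median log2 fold change was -0.37, against -0.02 over all tested genes. The median was -0.20 without HFD mouse 2 and -0.58 without HFD mouse 3.

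HFD vs. ND asks what the diet changed without treatment. Of 9978 genes tested with limma, 133 were called (1.33%), and 0 of the 10 lipogenesis genes were. At an unadjusted p under 0.05 there were 2, Acss2 and Mlxipl, against 15.1% of all tested genes, and the count was 1 without ND mouse 6 or HFD mouse 2. By the criteria of the study 1 of 10, Acss2, was counted, against 1.34%, and 0 without HFD mouse 3. The HFD values lay below the ND values for 1 gene, again Acss2, against 10%. Without 1 mouse this count was 4 (ND mouse 7), 3 (HFD mouse 2) and 2 (ND mouse 9, HFD mouse 1). The fold change was below 0 for 8 of 10, against 51.7%, with a median of -0.20, against -0.01 for all tested genes. Without ND mouse 9, only 4 of the 10 were below 0 and the median was 0.08. Without HFD mouse 3, 6 were below 0 and the median was -0.09, and it was -0.36 without ND mouse 7 and -0.34 without HFD mouse 2. The number of all genes called was 63, 39, 41 and 35 without ND mouse 6, ND mouse 7, HFD mouse 2 and HFD mouse 3.

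PRF 50 vs. ND places the treated mice against mice that never ate the high-fat diet. It shares its mice with the other comparisons, as those share the HFD mice, so the values of the 3 comparisons are given side by side and do not support each other. Of 10051 genes, 46 were called (0.458%), and 1 of the 10 lipogenesis genes was, Me1. The number of all genes called was 17 and 4 without ND mice 6 and 7, and 8, 26 and 71 without PRF 50 mice 3, 9 and 10, and in each of these 5 cases Me1 was no longer called. At an unadjusted p under 0.05 there were 6 of 10, all lower, against 12.5% of all tested genes, and the count was 3 without PRF 50 mouse 3. By the criteria of the study there were 2, Fasn and Me1, against 1.76%. That count was 3 without ND mouse 6, 5 without ND mouse 7, 1 without ND mouse 9 and 4 without PRF 50 mouse 9. The PRF 50 values lay below the ND values for 4 genes, Fasn, Acss2, Me1 and Mlxipl, against 11.8%, and for 8 without ND mouse 7. The fold change was below 0 for 9 of 10, against 56.6%, with a median of -0.76, against -0.03 for all tested genes. The median was -0.47 without ND mouse 9.

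**Figure D1:**
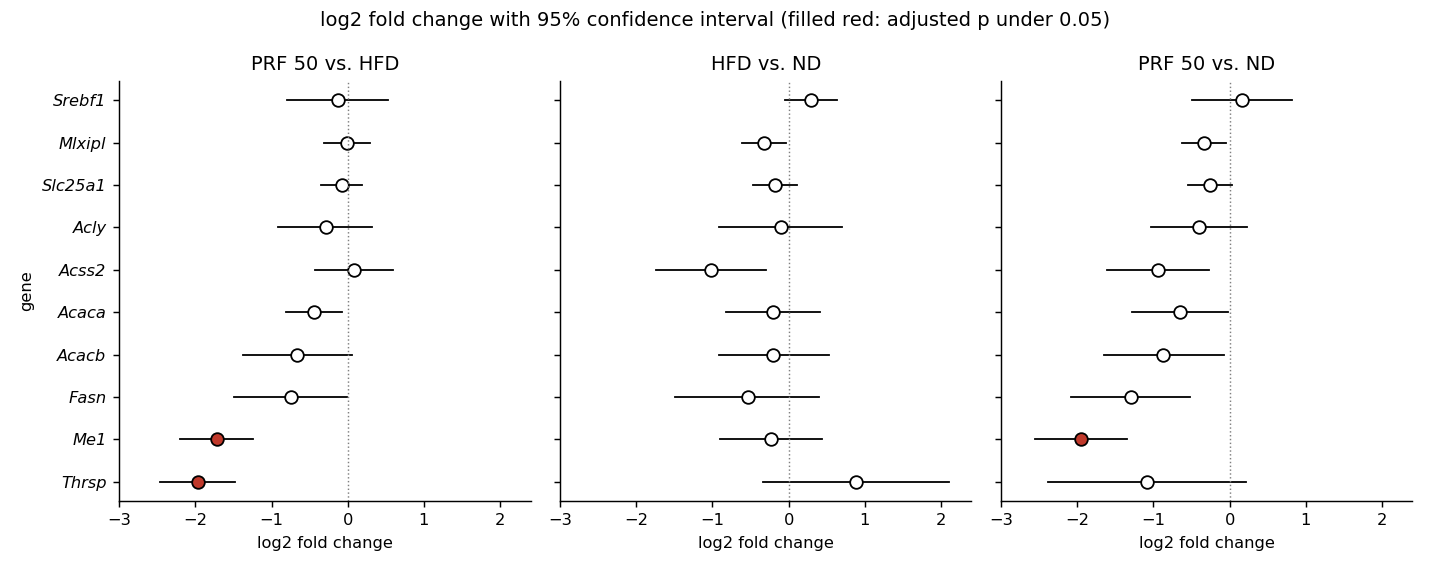
Log2 fold change of each of the 10 genes (points) with its 95% confidence interval (lines) in the 3 comparisons, from limma. Filled red points have an adjusted p under 0.05, which are Thrsp (-1.97) and Me1 (-1.72) in PRF 50 vs. HFD and Me1 (-1.95) in PRF 50 vs. ND.

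Srebf1 encodes SREBP-1a and SREBP-1c, membrane-bound transcription factors that are cut loose to switch on lipogenesis genes. The gene lies on the minus strand at chr11:60199089-60222581 (GRCm38, GENCODE M21) and overlaps Rai1 on the other strand and a pair of microRNA genes. Its level was 47.5, 37.1 and 49.4 FPKM in ND mice 6, 7 and 9, 55.7, 62.0 and 47.0 FPKM in HFD mice 1, 2 and 3, and 81.3, 36.4 and 41.3 FPKM in PRF 50 mice 3, 9 and 10. PRF 50 mouse 3 was the highest of the 9 livers and PRF 50 mouse 9 the lowest, so the PRF 50 group spanned both other groups. Srebf1 had a log2 fold change of 0.29 (SE 0.15, adjusted p = 0.423) in HFD vs. ND, and 0.17 without ND mouse 7. Between PRF 50 and HFD it was -0.13 (SE 0.28, adjusted p = 0.839), with 0.09 without PRF 50 mouse 9 and -0.48 without PRF 50 mouse 3. Against ND the treated mice had 0.16, with -0.19 without PRF 50 mouse 3 and 0.38 without PRF 50 mouse 9. The tables hold 1 value per gene, so the transcripts of the separate Srebf1 starts are not told apart. PRF 50 mouse 3 was also the highest of its group for all 12 macrophage markers and for 5 of 6 LXR targets outside fatty-acid synthesis. The part of these in its Srebf1 level was not tested.

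Mlxipl encodes ChREBP, the factor that responds to sugar phosphates, and lies on the plus strand at chr5:135089890-135138382. Its level was 24.3, 24.9 and 21.1 FPKM in the ND mice, 21.3, 18.3 and 16.2 FPKM in the HFD mice, and 16.1, 20.2 and 19.0 FPKM in the PRF 50 mice, in the order of mice given above, which is kept from here on. The ND mice were the highest, with ND mouse 9 just below HFD mouse 1, while the HFD and PRF 50 mice lay in the same range. Its log2 fold change was -0.32 (SE 0.13, adjusted p = 0.296) in HFD vs. ND, -0.33 (adjusted p = 0.325) in PRF 50 vs. ND and -0.01 (95% confidence interval -0.31 to 0.29, adjusted p = 0.975) in PRF 50 vs. HFD. The last value took the other sign after quantile normalization (0.04) and without HFD mouse 1 (0.09) or PRF 50 mouse 3 (0.08). Mlxipl and Slc25a1 were the only members with the E-box letters CACGTG in a promoter. The window of the first Mlxipl start is shown for this reason, at chr5:135089640-135089939 (GRCm38.p6, plus strand, sequence from RefSeq, 250 bases before to 50 after the start). Capitals mark the E-box, the letters CCAAT of the CCAAT box and the letters GGGCGG of the GC box, read on either strand, so that they also appear as ATTGG and CCGCCC.
Mlxipl start 1: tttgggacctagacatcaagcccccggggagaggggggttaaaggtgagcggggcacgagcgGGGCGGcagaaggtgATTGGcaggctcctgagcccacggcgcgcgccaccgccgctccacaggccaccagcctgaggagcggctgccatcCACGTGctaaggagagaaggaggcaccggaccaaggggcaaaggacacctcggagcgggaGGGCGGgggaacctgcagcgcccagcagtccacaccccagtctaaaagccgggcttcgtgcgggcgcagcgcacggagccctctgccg

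Slc25a1 encodes the citrate carrier, which brings citrate out of the mitochondria, and lies at chr16:17925223-17928219 on the minus strand. Its level was 150, 127 and 138 FPKM in the ND mice, 124, 133 and 109 FPKM in the HFD mice, and 128, 113 and 106 FPKM in the PRF 50 mice. The spread was small, with the highest mouse at most 1.23 times the lowest of its group, and neighbouring groups overlapped. For Slc25a1 the log2 fold change was -0.18 (adjusted p = 0.550) in HFD vs. ND, -0.08 (adjusted p = 0.748) in PRF 50 vs. HFD and -0.26 (adjusted p = 0.441) in PRF 50 vs. ND, and the value for PRF 50 vs. HFD was 0.05 after quantile normalization. That value was -0.16 without HFD mouse 3 or PRF 50 mouse 3 and -0.02 without HFD mouse 2 or PRF 50 mouse 10, and the value for HFD vs. ND was -0.10 without HFD mouse 3 and -0.12 without ND mouse 6. Its promoter at chr16:17928170-17928469 (minus strand) is shown because it holds 3 of the 5 motifs that were searched, with the E-box 239 bases before the start and 4 GC boxes.
Slc25a1: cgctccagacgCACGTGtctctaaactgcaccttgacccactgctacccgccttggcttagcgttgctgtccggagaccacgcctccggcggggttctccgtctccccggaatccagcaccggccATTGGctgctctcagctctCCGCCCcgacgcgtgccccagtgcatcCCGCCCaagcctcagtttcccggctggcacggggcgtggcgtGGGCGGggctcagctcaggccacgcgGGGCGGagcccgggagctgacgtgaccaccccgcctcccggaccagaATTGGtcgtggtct

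Acly encodes ATP-citrate lyase, which splits citrate to acetyl-CoA, and lies at chr11:100476353-100528000 on the minus strand. Its level was 33.2, 28.3 and 62.9 FPKM in the ND mice, 38.4, 52.4 and 23.6 FPKM in the HFD mice, and 33.8, 27.1 and 27.6 FPKM in the PRF 50 mice. ND mouse 9 was the highest and HFD mouse 3 the lowest, the HFD range covered all 3 PRF 50 mice, and PRF 50 mice 9 and 10 lay below the ND mice. Acly had log2 fold changes of -0.10 (adjusted p = 0.920) in HFD vs. ND, -0.29 (SE 0.26, adjusted p = 0.587) in PRF 50 vs. HFD and -0.40 (adjusted p = 0.567) in PRF 50 vs. ND. Between HFD and ND it was 0.23 without ND mouse 9 and 0.20 without HFD mouse 3. The PRF 50 vs. HFD value was -0.59 without HFD mouse 3 and -0.03 without HFD mouse 2, and that against ND was -0.62 without ND mouse 7 and -0.06 without ND mouse 9.

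Acss2 encodes the cytosolic acetyl-CoA synthetase, the other source of acetyl-CoA, which starts from acetate. The gene, at chr2:155517948-155585724 on the plus strand, overlaps 5 annotated genes, among them Ggt7 and Gss on the other strand. Its level was 86.5, 71.1 and 160 FPKM in the ND mice, 58.1, 56.1 and 35.1 FPKM in the HFD mice, and 41.4, 59.1 and 55.3 FPKM in the PRF 50 mice. All 3 ND mice lay above the other 6, and the HFD and PRF 50 mice overlapped. The log2 fold change was -1.02 (SE 0.31, 95% confidence interval -1.74 to -0.30, adjusted p = 0.190) in HFD vs. ND and -0.94 (SE 0.29, adjusted p = 0.240) in PRF 50 vs. ND. Between PRF 50 and HFD it was 0.08 (95% confidence interval -0.43 to 0.59, adjusted p = 0.878), and it was -0.15 without HFD mouse 3 and -0.02 without PRF 50 mouse 9. Without ND mouse 9 the value for HFD vs. ND was -0.68 and that for PRF 50 vs. ND was -0.60. Acss2 thus had the lowest fold change of the 10 genes in HFD vs. ND and the only one above 0 in PRF 50 vs. HFD as deposited. Its promoter at chr2:155517793-155518092 (plus strand) is shown beside those of the called genes for this contrast. It holds 5 GC boxes, from 241 bases before to 8 bases after the start, and a CCAAT box 73 bases before it.
Acss2: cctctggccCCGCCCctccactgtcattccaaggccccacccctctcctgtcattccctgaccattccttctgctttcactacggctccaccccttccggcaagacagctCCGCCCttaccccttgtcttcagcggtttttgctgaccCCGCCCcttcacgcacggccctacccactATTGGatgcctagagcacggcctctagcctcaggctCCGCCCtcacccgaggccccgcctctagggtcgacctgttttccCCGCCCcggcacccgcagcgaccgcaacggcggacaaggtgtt

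Acaca and Acacb encode the ACC enzymes. ACC1, from Acaca, is cytosolic and feeds fatty-acid synthesis. ACC2, from Acacb, sits at the mitochondrial surface, where its malonyl-CoA restrains fatty-acid oxidation. Acaca spans chr11:84129672-84401651 and Acacb chr5:114146535-114250761, both on the plus strand. Acaca was at 10.9, 6.85 and 16.4 FPKM in the ND mice, 9.67, 10.5 and 7.55 FPKM in the HFD mice, and 6.50, 7.78 and 5.37 FPKM in the PRF 50 mice. PRF 50 mouse 9 lay just above HFD mouse 3, and the other PRF 50 mice lay below all HFD and ND mice. Acacb was at 7.29, 6.44 and 14.7 FPKM, 8.05, 10.5 and 5.20 FPKM, and 3.73, 7.24 and 3.11 FPKM in the 3 groups. PRF 50 mice 3 and 10 were the lowest of the 9 livers for Acacb, while PRF 50 mouse 9 lay inside the ND and HFD ranges. Under PRF 50 vs. HFD the log2 fold change of Acaca was -0.44 (SE 0.16, adjusted p = 0.170) and that of Acacb was -0.67 (SE 0.31, adjusted p = 0.282). Against ND these were -0.65 (adjusted p = 0.387) and -0.87 (adjusted p = 0.355), or -0.37 and -0.53 without ND mouse 9. Between HFD and ND they were -0.21 and -0.20, and without ND mouse 9 they were 0.07 and 0.14. The Acacb value for HFD vs. ND was also above 0, at 0.04, without HFD mouse 3.

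Since both genes are given per length, the share of Acacb in their sum was computed in each mouse. It was 40.1%, 48.4% and 47.4% in the ND mice, 45.4%, 49.8% and 40.8% in the HFD mice, and 36.5%, 48.2% and 36.7% in the PRF 50 mice. Acaca was thus above Acacb in 9 of 9 livers. The group means were 45.3% ± 4.54 (ND), 45.3% ± 4.53 (HFD) and 40.5% ± 6.72 (PRF 50), each with the SD of 3 mice. PRF 50 mice 3 and 10 were the lowest of all, and PRF 50 mouse 9 lay among the highest. The difference between PRF 50 and HFD was -4.87 percentage points (two-sided exact permutation test, p = 0.3), which is smaller than the spread within the PRF 50 group. It was -8.75 without PRF 50 mouse 9 and -2.62 without HFD mouse 2. With 3 mice against 3 the smallest p this test can give is 0.1. The difference between HFD and ND was 0.0221 percentage points (exact permutation p = 1.0), with -2.58 without ND mouse 6 and 2.31 without HFD mouse 3.

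Fasn encodes fatty-acid synthase, at chr11:120805846-120824547 on the minus strand. Its level was 35.0, 18.0 and 50.2 FPKM in the ND mice, 23.6, 32.6 and 12.7 FPKM in the HFD mice, and 15.7, 11.9 and 10 FPKM in the PRF 50 mice. All 3 PRF 50 mice lay below all 3 ND mice, and HFD mouse 3 lay inside the PRF 50 range. The group means of log2(FPKM + 1) were 5.03 ± 0.72 (ND), 4.49 ± 0.66 (HFD) and 3.74 ± 0.30 (PRF 50; SD, n = 3 each). The log2 fold change was -0.54 (SE 0.41, adjusted p = 0.579) in HFD vs. ND, -0.75 (SE 0.32, adjusted p = 0.239) in PRF 50 vs. HFD and -1.30 (SE 0.34, 95% confidence interval -2.08 to -0.52, adjusted p = 0.171) in PRF 50 vs. ND. All 3 values were below 0, and none of the 3 passed. The PRF 50 vs. HFD value was -1.11 without HFD mouse 3 and -0.46 without HFD mouse 2, and in HFD vs. ND it was -0.93 without ND mouse 7 and -0.19 without HFD mouse 3. The Fasn promoter at chr11:120824498-120824797 (minus strand) is shown because its 3 CCAAT boxes lie close together, at 90, 62 and 59 bases before the start, and the last 2 share bases.
Fasn: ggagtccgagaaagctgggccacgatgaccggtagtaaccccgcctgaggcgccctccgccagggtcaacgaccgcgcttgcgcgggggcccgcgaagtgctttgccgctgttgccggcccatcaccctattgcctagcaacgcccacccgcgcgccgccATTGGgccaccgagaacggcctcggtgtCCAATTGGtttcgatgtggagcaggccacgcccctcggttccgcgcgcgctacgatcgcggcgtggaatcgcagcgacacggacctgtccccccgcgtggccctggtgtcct

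Me1 encodes cytosolic malic enzyme, which supplies NADPH for fatty-acid synthase, at chr9:86581371-86695953 on the minus strand. Its level was 77.6, 77.0 and 150 FPKM in the ND mice, 71.9, 112 and 68.7 FPKM in the HFD mice, and 20.8, 28.8 and 23.6 FPKM in the PRF 50 mice. Every PRF 50 mouse lay below every other mouse, and the ND and HFD mice overlapped. The group means of log2(FPKM + 1) were 6.61 ± 0.55 (ND), 6.38 ± 0.38 (HFD) and 4.65 ± 0.23 (PRF 50; SD, n = 3 each). Me1 fell by 1.72 on the log2 scale in PRF 50 vs. HFD (SE 0.20, 95% confidence interval -2.20 to -1.24, adjusted p = 0.0148), which is 3.30-fold. In PRF 50 vs. ND it fell by 1.95 (SE 0.26, 95% confidence interval -2.56 to -1.35, adjusted p = 0.0302). The HFD vs. ND value was -0.23 (SE 0.29, adjusted p = 0.752), and 0.08 without ND mouse 9. For PRF 50 vs. HFD the adjusted p was 0.0529 without HFD mouse 3 and 0.0520 without PRF 50 mouse 3, with log2 fold changes of -1.85 and -1.62. Against ND it was 0.0995 and 0.0747 without ND mice 6 and 7 and 0.130, 0.0590 and 0.0514 without PRF 50 mice 3, 9 and 10, while the fold change stayed between -2.11 and -1.64 over the 6 mice left out. With no minimum level the adjusted p was 0.104, and after quantile normalization 0.0573. The promoter of the first Me1 start is shown because the gene was called, at chr9:86695865-86696164 (minus strand, 39 bases from the nearest start in GENCODE). It holds 4 GC boxes, a pair of them side by side 48 and 42 bases before the start, and no CCAAT box.
Me1 start 1: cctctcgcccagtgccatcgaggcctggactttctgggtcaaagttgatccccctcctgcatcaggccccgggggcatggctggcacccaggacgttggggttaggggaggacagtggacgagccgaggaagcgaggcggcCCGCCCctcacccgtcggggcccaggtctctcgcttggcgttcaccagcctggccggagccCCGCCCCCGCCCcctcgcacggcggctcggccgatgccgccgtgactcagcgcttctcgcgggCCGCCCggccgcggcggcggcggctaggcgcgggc

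Thrsp encodes the Spot 14 protein, a small partner of the lipogenic enzymes that was found through its response to thyroid hormone, at chr7:97412938-97417730 on the minus strand. Its level was 425, 113 and 604 FPKM in the ND mice, 601, 581 and 529 FPKM in the HFD mice, and 174, 102 and 170 FPKM in the PRF 50 mice. The HFD mice were alike and high, the PRF 50 mice all lower, and the ND mice spread from the level of the PRF 50 mice (ND mouse 7) to that of the HFD mice (ND mouse 9), with the highest 5.33 times the lowest. The group means of log2(FPKM + 1) were 8.27 ± 1.27 (ND), 9.16 ± 0.09 (HFD) and 7.19 ± 0.44 (PRF 50; SD, n = 3 each). Thrsp fell by 1.97 on the log2 scale in PRF 50 vs. HFD (SE 0.21, 95% confidence interval -2.46 to -1.48, adjusted p = 0.0133), which is 3.92-fold. The adjusted p was 0.0516 without HFD mouse 2 and 0.0529 without HFD mouse 3, with log2 fold changes of -1.96 and -2.02. It was 0.0654 when all 9 mice were fitted together, where the wide ND group enters the variance. The log2 fold change was 0.88 (SE 0.53, 95% confidence interval -0.34 to 2.11, adjusted p = 0.490) in HFD vs. ND and -1.09 (SE 0.56, adjusted p = 0.474) in PRF 50 vs. ND. Without ND mouse 7 these were 0.17 and -1.80, and without ND mouse 9 they were 1.37 and -0.60. The Thrsp promoter, also shown because the gene was called, lies at chr7:97417501-97417800 (minus strand, 31 bases from the nearest GENCODE start). It has CCAAT boxes 79 and 52 bases before the start and no GC box.
Thrsp: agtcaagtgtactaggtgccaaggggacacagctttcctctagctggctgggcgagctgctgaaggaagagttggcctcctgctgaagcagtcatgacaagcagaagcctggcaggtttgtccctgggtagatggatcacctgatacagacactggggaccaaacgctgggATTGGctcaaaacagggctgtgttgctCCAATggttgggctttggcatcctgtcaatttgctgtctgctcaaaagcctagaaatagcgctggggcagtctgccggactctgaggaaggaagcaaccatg

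**Figure D2:**
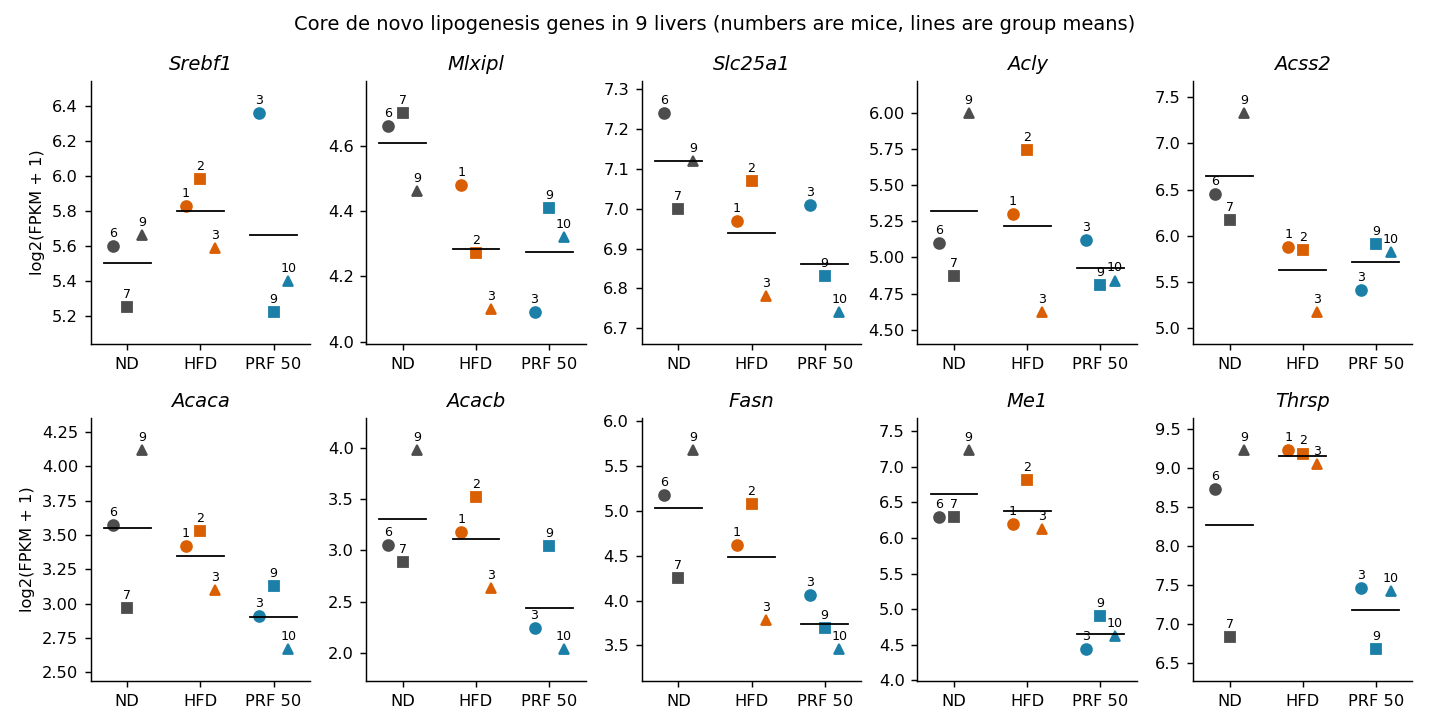
Level of each of the 10 genes in each liver as log2(FPKM + 1), with mice numbered and lines at the group means. The 3 PRF 50 mice lie below the 3 HFD mice for Me1 and Thrsp, and the 3 ND mice lie above the other 6 for Acss2.

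By mean level over the 9 livers, Thrsp came first at 367 FPKM, followed by Slc25a1 (125), Me1 (70.0), Acss2 (69.2), Srebf1 (50.9), Acly (36.4), Fasn (23.3), Mlxipl (20.2), Acaca (9.05) and Acacb (7.36). The ranges of each pair of neighbours in this order overlapped. Within mice, Mlxipl was above Acaca and Acaca above Acacb in 9 of 9 livers, while Thrsp was above Slc25a1 in 7 of 9, Me1 above Acss2 in 4 of 9 and Fasn above Mlxipl in 4 of 9. The order differed between groups. In the PRF 50 group the means were 149 FPKM for Thrsp, 115 for Slc25a1, 53.0 for Srebf1, 52.0 for Acss2, 29.5 for Acly and 24.4 for Me1.

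Within the groups, single mice stood apart across most of the 10 genes. HFD mouse 3 was the lowest HFD mouse for 10 of 10 genes, against 34.7% of the 10048 genes that averaged 1 FPKM or more over the 9 livers. ND mouse 7 was the lowest ND mouse for 9 of 10, all but Mlxipl, against 26.4%. ND mouse 9 was the highest ND mouse for 8 of 10, against 33.1%, and the highest of the 9 livers for 7. It was also the highest ND mouse for 12 of 12 macrophage and 7 of 7 endothelial markers, and their part in its values was not tested. HFD mouse 2 was the highest HFD mouse for 7 of 10, against 27.9%. It was also the highest HFD mouse for 7 of 7 stellate markers, whose part in its values was not tested. In the PRF 50 group mouse 3 and mouse 9 were each the highest for 5, and mouse 10 was the highest for 0, against 34.1%, and the lowest of the 9 livers for 4. HFD mouse 3 had the highest relative depth of the 9 livers, at 1.60, and the part of depth in its low values was not tested. HFD mouse 1, the lowest HFD mouse for 11 of 12 macrophage and 7 of 7 endothelial markers and the highest for 10 of 10 tested hepatocyte markers, was the lowest for 0 of the 10 lipogenesis genes.

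**Figure D3:**
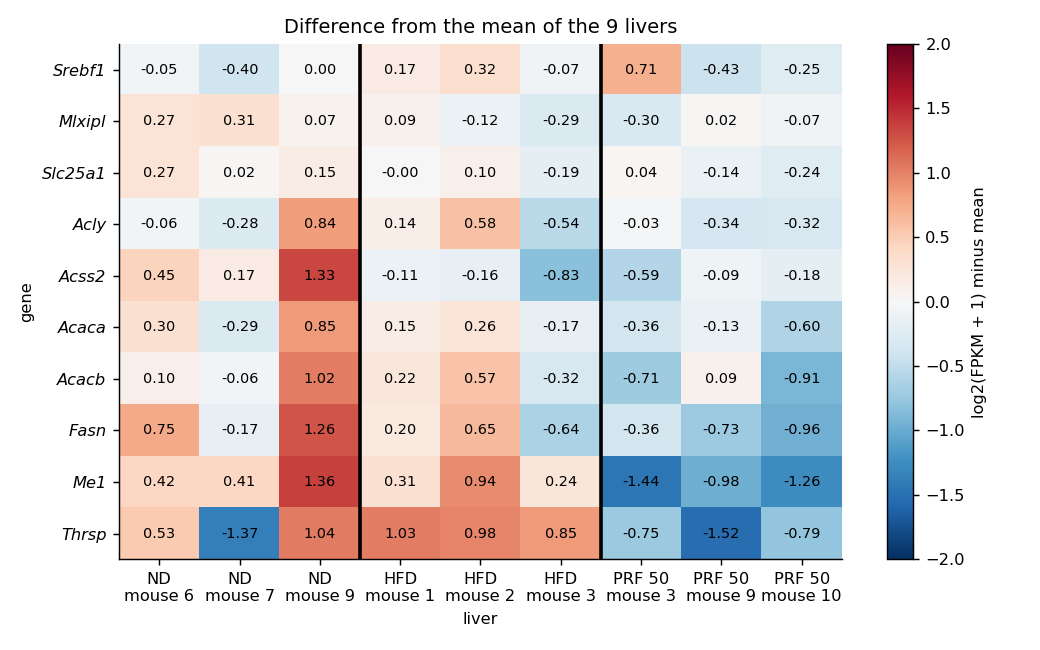
Difference of each liver from the mean of the 9 livers, as log2(FPKM + 1), for the 10 genes (rows) and 9 mice (columns), with red above and blue below the mean. ND mouse 9 is the highest liver for 7 genes, and Fasn, Acaca, Acly, Acss2, Me1 and Thrsp are below the mean in all 3 PRF 50 mice.

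The places of the mice were also counted on other lists. For 8 desaturases and elongases, ND mouse 9 was the highest ND mouse for 6 and ND mouse 7 the lowest for 7. There HFD mouse 2 was the highest HFD mouse for 6 and HFD mouse 3 the lowest for 5. PRF 50 mouse 9 was the highest PRF 50 mouse for 6 and PRF 50 mouse 10 the lowest for 5. On a list of 18 sterol synthesis genes controlled by SREBP-2, ND mouse 9 was the highest ND mouse for 17, ND mouse 7 the lowest for 14 and HFD mouse 3 the lowest HFD mouse for 18. HFD mouse 2 was the highest HFD mouse for 6 of the 18 and HFD mouse 1 for 12, and PRF 50 mouse 9 was the highest PRF 50 mouse for 14 and PRF 50 mouse 10 the lowest for 12. With limma, 0 of the 18 sterol genes were called in HFD vs. ND, 6 had an unadjusted p under 0.05, and 18 of 18 had a fold change below 0, with a median of -0.52. The median was -0.37 without ND mouse 9 (1 gene with an unadjusted p under 0.05) and -0.18 without HFD mouse 3 (3 genes). There were 2 such genes without ND mouse 6, and the median was -0.72 without HFD mouse 1. The 2 with the smallest p were Pmvk (-0.81, adjusted p = 0.163) and Cyp51 (-0.83, adjusted p = 0.230, with -0.51 without HFD mouse 3). Between PRF 50 and HFD, limma called 0 of 18, 2 had an unadjusted p under 0.05 and 15 of 18 were above 0 (17 after quantile normalization), with a median of 0.27. Without HFD mouse 3, 10 were above 0 and the median was 0.05, without HFD mouse 1 it was 0.48, and the count with an unadjusted p under 0.05 was 7 without HFD mouse 1, 1 without HFD mouse 2 or 3 and 0 without PRF 50 mouse 9. Cyp51 had the smallest p (0.77, adjusted p = 0.151), followed by Mvk (0.53, adjusted p = 0.242), and without HFD mouse 3 they had 0.45 and 0.32. Against ND, limma called 0 of the 18 in the treated mice, 2 had an unadjusted p under 0.05 and the median was -0.15. That count was 5 without ND mouse 7 and 1 without ND mouse 6, ND mouse 9 or PRF 50 mouse 10. The median was -0.01 without ND mouse 9, -0.23 without ND mouse 6, -0.35 without ND mouse 7 and -0.29 without PRF 50 mouse 9.

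Other genes that control the pathway were followed in a list of 14 partners of SREBP, LXR and ChREBP, of which 13 were tested. In none of the 3 comparisons was one called with limma, and 1, 2 and 2 genes had an unadjusted p under 0.05 in PRF 50 vs. HFD, HFD vs. ND and PRF 50 vs. ND. The medians were 0.05, -0.12 and -0.01. With a mouse omitted they ran from 0.02 to 0.12, from -0.16 to -0.07 and from -0.11 to -0.02, in the same order. The first count was 0 without HFD mouse 2, HFD mouse 3, PRF 50 mouse 9 or PRF 50 mouse 10. The HFD vs. ND count was 4 without HFD mouse 1 and 1 without ND mouse 6, ND mouse 9, HFD mouse 2 or HFD mouse 3, and the PRF 50 vs. ND count was 1 without ND mouse 6 or PRF 50 mouse 9 and 0 without ND mouse 9 or PRF 50 mouse 10. Scap, which escorts SREBP to its proteases, had 0.24 (adjusted p = 0.243) in PRF 50 vs. HFD and -0.34 (adjusted p = 0.217) in HFD vs. ND. Insig1, which holds SREBP back, had -0.78 (adjusted p = 0.305) in HFD vs. ND and -0.67 (adjusted p = 0.354) in PRF 50 vs. ND, with -0.37 in the first without HFD mouse 3 and -0.40 in the other without PRF 50 mouse 10. Of 6 LXR targets outside fatty-acid synthesis, 0 of 6 were called with limma in PRF 50 vs. HFD and 2 had an unadjusted p under 0.05, Abcg1 (0.52, adjusted p = 0.0977) and Lpcat3 (-0.31, adjusted p = 0.216). That count was 1 without HFD mouse 1, HFD mouse 2, PRF 50 mouse 9 or PRF 50 mouse 10, and Lpcat3 had -0.20 without HFD mouse 2. With limma, 0 of 5 were called in HFD vs. ND and 0 of 6 in PRF 50 vs. ND, and 1 (Abcg8, 0.44, adjusted p = 0.120; 3 without ND mouse 6, 2 without HFD mouse 3) and 2 had an unadjusted p under 0.05.

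A list of 12 genes holds those that carry glucose and fructose toward the pathway and known ChREBP targets. Between PRF 50 and HFD, 4 of 12 were called and 12 of 12 were below 0, with a median of -0.68, against -0.02 for all tested genes. Liver pyruvate kinase (Pklr), which makes pyruvate, fell by 1.19 (adjusted p = 0.0211), glucose-6-phosphatase (G6pc), which releases glucose, by 2.19 (adjusted p = 0.0321), and triokinase (Tkfc), which acts on fructose, by 0.64 (adjusted p = 0.0429). The number called was 0 without HFD mouse 2, HFD mouse 3 or PRF 50 mouse 3, 2 without PRF 50 mouse 9 and 1 without PRF 50 mouse 10. All 12 stayed below 0 each time. With no minimum level the adjusted p was 0.0704 for G6pc and 0.0763 for Tkfc, and after quantile normalization it was 0.0837 for Tkfc. Pklr was at 7.14, 6.49 and 7.47 in the ND mice, 7.27, 7.29 and 6.97 in the HFD mice and 6.10, 5.66 and 6.21 in the PRF 50 mice, as log2(FPKM + 1), with the PRF 50 mice below all others. With limma, 0 of the 12 were called in HFD vs. ND, 4 had an unadjusted p under 0.05 and 11 were above 0, with a median of 0.24. There were 7 above 0 without ND mouse 7, and 2, 1 and 2 had an unadjusted p under 0.05 without ND mouse 7, ND mouse 9 and HFD mouse 1. For PRF 50 vs. ND the 1 gene called was Txnip, which fell by 1.21 (adjusted p = 0.0217) and was not called without ND mouse 6, ND mouse 7 or PRF 50 mouse 3, with adjusted p-values of 0.0995, 0.111 and 0.0618. It was 0.0523 with all 9 mice in 1 fit and 0.0777 with no minimum level.

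Upstream of citrate, 14 of 15 genes of mitochondrial pyruvate, citrate and acetyl-CoA supply were tested. Between PRF 50 and HFD, 5 were called and 14 of 14 were below 0, with a median of -0.38. Acss3, a mitochondrial acyl-CoA synthetase, fell by 2.35 (adjusted p = 0.0150), Mpc1, a subunit of the mitochondrial pyruvate carrier, by 0.79 (adjusted p = 0.0201), and Pdha1, a subunit of pyruvate dehydrogenase, by 0.54 (adjusted p = 0.0238, and 0.0529 after quantile normalization). The dicarboxylate carrier Slc25a10, chosen after its values were seen, was also called (-0.83, adjusted p = 0.0351). The number called was 3 without HFD mouse 1 or PRF 50 mouse 10 and 0 without HFD mouse 2, HFD mouse 3 or PRF 50 mouse 3. With limma, 0 of 14 were called in HFD vs. ND and 5 had an unadjusted p under 0.05 (3 without ND mouse 7 or HFD mouse 2). The median was 0.15, and 0.09 without HFD mouse 1. In that comparison pyruvate carboxylase (Pcx) had 0.57 (adjusted p = 0.0559). Against ND, limma called 0 of 14 in the treated mice, 6 had an unadjusted p under 0.05 (3 without PRF 50 mouse 3) and the median was -0.32. The carrier Slc25a1 itself had -0.08 in PRF 50 vs. HFD.

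NADPH also comes from other enzymes, and 10 of 11 such genes were tested in PRF 50 vs. HFD. Of these 2 were called, Nnt, which fell by 0.55 (adjusted p = 0.0232), and Idh2, which fell by 0.49 (adjusted p = 0.0449). The fold change of Me1 was -1.72. The list holds mitochondrial as well as cytosolic enzymes, and which of them supply fatty-acid synthase was not tested. Whether the Nnt transcript of this strain gives a working enzyme was not tested either. Over the 10 genes 7 were below 0, and the median was -0.16. The number called was 1 without HFD mouse 1 or PRF 50 mouse 9 and 0 without HFD mouse 2, HFD mouse 3, PRF 50 mouse 3 or PRF 50 mouse 10. Idh2 was not called whichever of the 6 mice was left out (adjusted p from 0.0720 to 0.149). It was also not called with all 9 mice in 1 fit (0.113), with no minimum level (0.0714), after quantile normalization (0.0912) and without a trend (0.0518). For HFD vs. ND and PRF 50 vs. ND, 0 of 9 and 0 of 10 were called with limma, and 1 and 3 had an unadjusted p under 0.05. Of the 9 partners, modifiers and users of the products of ACC and fatty-acid synthase, 8 were tested in PRF 50 vs. HFD, 0 were called with limma and 1 had an unadjusted p under 0.05, Acsl5, which activates fatty acids (-0.41, adjusted p = 0.161). That count was 2 without HFD mouse 3, 3 without PRF 50 mouse 3 and 0 without PRF 50 mouse 9, and Acsl5 had -0.27 without HFD mouse 2. Limma called 0 of these 8 in HFD vs. ND and in PRF 50 vs. ND, where 1 and 3 had an unadjusted p under 0.05. The first of these was 2 without ND mouse 9 and 0 without HFD mouse 3, and the other was 1 without ND mouse 6, PRF 50 mouse 9 or PRF 50 mouse 10. The paralog partner of Thrsp, Mid1ip1, had -0.60 (adjusted p = 0.210) in HFD vs. ND and -0.76 (adjusted p = 0.314) in PRF 50 vs. ND. Acsl5 had -0.56 (adjusted p = 0.173) in PRF 50 vs. ND.

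Desaturases and elongases act on various fatty acids, among them the palmitate that the pathway makes. Of 10, 8 were tested in PRF 50 vs. HFD, 0 were called with limma and 4 had an unadjusted p under 0.05. The elongase of palmitate, Elovl6, had -0.96 (adjusted p = 0.0629) and Elovl1 had 0.43 (adjusted p = 0.0866). For HFD vs. ND, 0 of 8 were called with limma and 4 had an unadjusted p under 0.05 (2 without ND mouse 6 or HFD mouse 1), with Elovl3 at -1.18 (adjusted p = 0.0506, and 0.0366 with a minimum of 10 FPKM) and Fads2 at 1.09 (adjusted p = 0.128). Against ND, limma called 0 of 9 in the treated mice and 4 had an unadjusted p under 0.05 (2 without ND mouse 6). Elovl3 had -1.23 (adjusted p = 0.0949) there and was called without PRF 50 mouse 10 (adjusted p = 0.0308). The desaturase Scd1 had -2.06 (adjusted p = 0.151).

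Fasting lowers lipogenesis, and a list of 10 genes known to rise with fasting in liver was examined for this reason. Between PRF 50 and HFD 2 of 10 were called, both lower, and 8 were below 0, with a median of -0.43, or -0.22 without PRF 50 mouse 3. Among them Cidec, a lipid droplet protein, fell by 2.72 (adjusted p = 0.0336). The number called was 3 without PRF 50 mouse 9 and 0 without HFD mouse 2, HFD mouse 3, PRF 50 mouse 3 or PRF 50 mouse 10. With no minimum level the adjusted p of Cidec was 0.0749. For HFD vs. ND 8 of 10 were above 0, with a median of 0.44, and 5 had an unadjusted p under 0.05, all higher (3 without ND mouse 7 or HFD mouse 2). Of these 1 was called, Cpt1a, with a rise of 0.60 (adjusted p = 0.0483), and leaving out any of the 6 mice in turn gave adjusted p-values of 0.0773 to 0.220 for it, as did all 9 mice in 1 fit (0.174) and no minimum level (0.0836). Without HFD mouse 1 the count was 2, of other genes. Against ND, limma called 0 of 8 in the treated mice and 1 had an unadjusted p under 0.05, Cidec (-1.27, adjusted p = 0.0729), with 2 without ND mouse 6, ND mouse 7, PRF 50 mouse 9 or PRF 50 mouse 10. Among 14 clock genes, 0 of 11 tested in PRF 50 vs. HFD and 0 of 12 in PRF 50 vs. ND were called with limma, and 1 and 2 had an unadjusted p under 0.05. The first count was 3 without HFD mouse 1 or 2 and 2 without PRF 50 mouse 9, and the other was 5 without ND mouse 6 and 1 without PRF 50 mouse 9 or 10. For HFD vs. ND 1 of 12 was called, Bhlhe41, which fell by 0.98 (adjusted p = 0.0320). It was called without HFD mouse 2 and not without any other of the 6 mice (adjusted p from 0.0601 to 0.133), and the value with no minimum level was 0.0909. The parts of feeding state and hour of collection in the values of the lipogenesis genes were not tested.

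**Figure D4:**
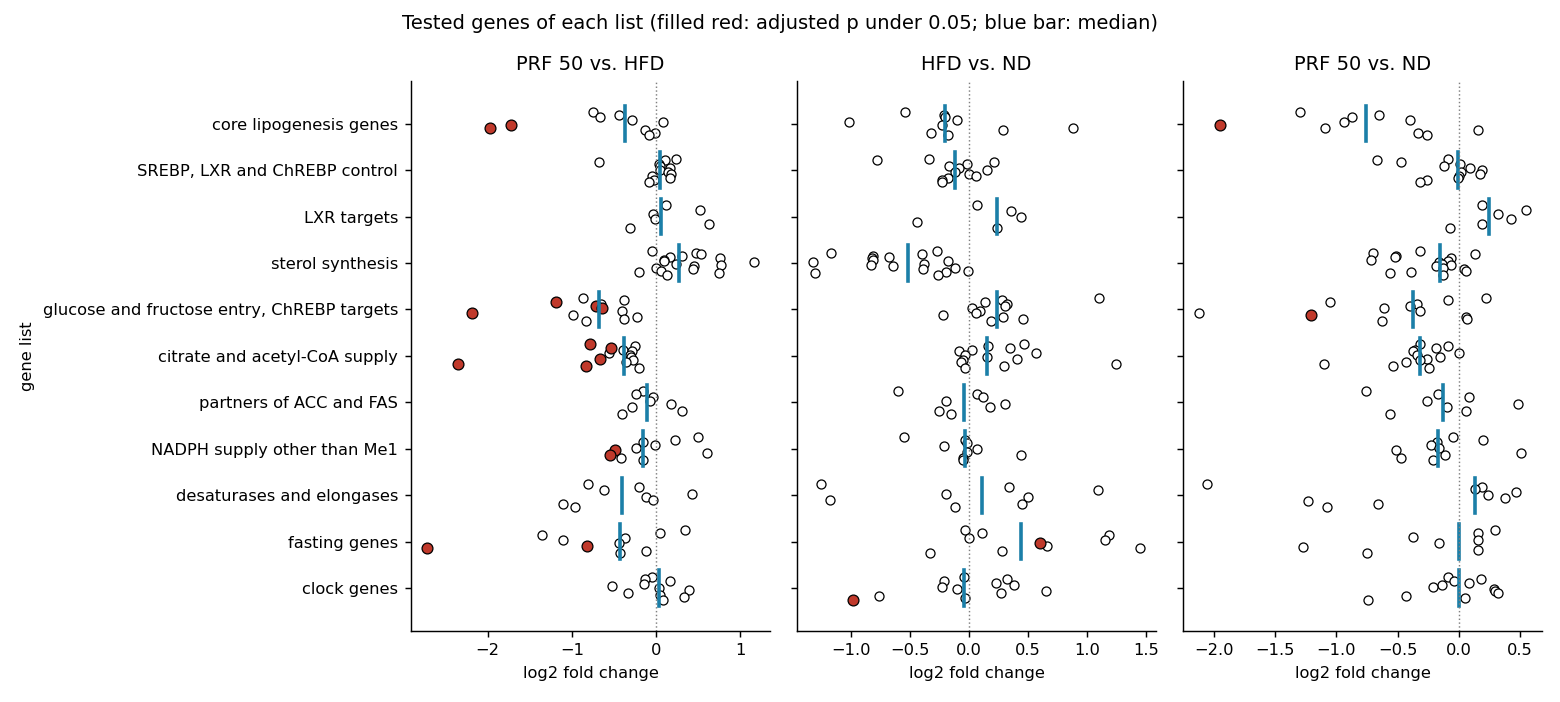
Log2 fold change of each tested gene (points) on the lipogenesis list and on 10 lists of neighbouring pathways in the 3 comparisons, with filled red points for an adjusted p under 0.05 and blue bars at the medians. In PRF 50 vs. HFD the medians were -0.37 for the lipogenesis genes, -0.68 for glucose and fructose entry and 0.27 for sterol synthesis.

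The 10 genes also differed in how closely they varied with each other over the 9 livers, given here as a description because all share the same mice and groups. The mean Pearson r with the other 9 was 0.71 for Fasn, 0.67 for Acaca, 0.62 for Acacb, 0.61 for Acly, 0.59 for Me1, 0.58 for Slc25a1, 0.52 for Acss2 and 0.45 for Thrsp. It was 0.23 for Mlxipl and 0.08 for Srebf1, the 2 regulators. Among 10038 other genes, the 5 with the highest mean r with the members were Acat2 (0.71), Pgam5 (0.69), D130043K22Rik (0.69), Pdcd5 (0.68) and Scd1 (0.68). Acat2 was at 4.99, 4.56 and 5.21 in the ND mice, 4.83, 4.96 and 4.63 in the HFD mice, and 4.64, 4.51 and 4.23 in the PRF 50 mice, as log2(FPKM + 1). Scd1 was at 11.41, 10.25 and 12.05, at 10.01, 10.51 and 9.45, and at 9.10, 9.95 and 8.48 in the same order. For both, ND mouse 9 was the highest liver and PRF 50 mouse 10 the lowest.

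Promoters were searched for motifs known from lipogenesis genes. RefSeq gave a promoter for 10 of 10 genes and 14 promoters in all, with 3 for Srebf1 and 2 each for Me1 and Mlxipl. Each window runs from 250 bases before to 50 bases after a start, and 32841 windows of 300 bases served for comparison. The CCAAT box (CCAAT, either strand) was in 10 of the 14 promoters, of 9 of the 10 genes, and in 37.4% of all windows. The GC box (GGGCGG, either strand) was in 7 of 14, of 6 genes, and in 35.7% of all. The E-box (CACGTG) was in 2 of 14, those of Mlxipl and Slc25a1, and in 7.15% of all. The core of the sterol regulatory element (TCACNCCAC, either strand) was in 1, the second Mlxipl start, 136 bases before it, and in 1.24% of all. The carbohydrate response element, searched as a pair of short E-box-like letters 5 bases apart, was in 0 of 14 and in 1.02% of all. These matches are letters in a window and no measured sites, and where a motif was not found, its letters are missing from that window only. The Thrsp window held CCAAT boxes and no GC box, the first Me1 start GC boxes and no CCAAT box, and the second Me1 start 1 CCAAT box and no GC box. The Acaca window, around a start well inside the annotated gene, held none of the 5 motifs.

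**Figure D5:**
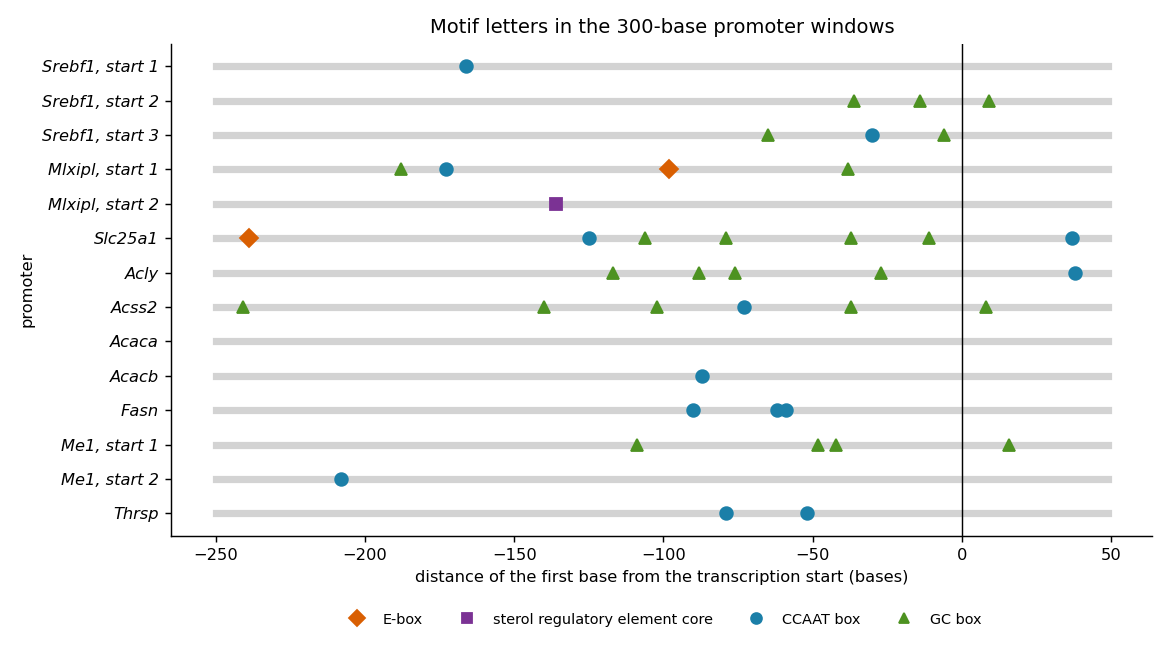
Position of the motif letters (symbols, on either strand) in the 14 promoter windows of the 10 genes (rows), as distance of the first base from the start in bases. Fasn has 3 CCAAT boxes between 90 and 59 bases before the start, and Me1 start 1 has 4 GC boxes.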

How the data were processed

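Liver RNA of 9 mice, 3 each of the ND, HFD and PRF 50 groups, was used, grouped by the labels. The authors made directional poly(A) libraries, mapped paired reads with TopHat (build mm10, per the labels), estimated FPKM with Cufflinks, applied a geometric normalization (stated as EdgeR) and deposited log2 values, read as log2(FPKM + 1). The added 1 is inferred from the lowest value of 0. The annotation, and whether strand was used in counting, are not stated. Genes averaging 1 FPKM or more in the 6 mice compared were tested with limma 3.58.1 in R 4.3.3 (lmFit, eBayes with a trend), and p-values were adjusted by Benjamini-Hochberg over all tested genes. Every adjusted p-value is from limma. Shares were compared by exact permutation tests. Of the steps, only the limma fit was tested on simulated data, for PRF 50 vs. HFD. Alternatives were 1 fit of all 9 mice, omitting each mouse, a pseudocount of 0.1, no minimum or 10 FPKM, scaling by median of ratios or quantiles, no trend and the criteria of the study.

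The 10 genes and the other lists were chosen with earlier results of these data known. The other lists cover SREBP, LXR and ChREBP partners, NADPH, citrate and acetyl-CoA, ACC partners, glucose and fructose entry, desaturases and elongases, sterol synthesis, LXR targets, fasting, clock genes and markers of 6 cell types. From each the text names up to 3 called genes per direction and comparison by smallest p, or up to 2 by smallest p where none was called, and the 5 genes most like the members. Positions are from GENCODE M21 and promoters from RefSeq (GRCm38.p6).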

Additional observations from a re-analysis of the deposited data

How the results depend on the processing

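The 10 genes have 30 log2 fold changes, and 205 values came from alternatives other than omitting a mouse. Of these 200 kept their direction and their side of the threshold, 3 no longer passed and 2 had the other sign, both after quantile normalization in PRF 50 vs. HFD (Mlxipl 0.04, Slc25a1 0.05). Of the 205, 30 are from median-of-ratios scaling, whose factors were 0.9984 to 1.008. That scaling hardly moved the values and says little on their stability. The fit of all 9 mice, no minimum, a minimum of 10 FPKM and no trend leave each log2 fold change as it was. For these alternatives the direction was fixed in advance, here and for the other named genes, and only the adjusted p could move. The adjusted p of Thrsp in PRF 50 vs. HFD ran from 0.00913 to 0.0654 over these alternatives and that of Me1 from 0.0104 to 0.0396, and for Me1 in PRF 50 vs. ND from 0.0158 to 0.104. Of 180 values with a mouse omitted, 159 kept both, 9 no longer passed and 12 had the other sign. For the other named genes, 586 of 611 values kept both, 19 no longer passed and 6 newly passed, and with a mouse omitted 470 of 549 kept both, 69 no longer passed, 6 newly passed and 4 had the other sign.

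In PRF 50 vs. HFD the number of genes called was 126 with no minimum level and 212 by the criteria of the study, and 15 to 242 with a mouse omitted. Of the 10 genes, 1 was called with all 9 mice in 1 fit and 0 to 2 with a mouse omitted. In HFD vs. ND 37 genes were called with no minimum and 35 to 140 with a mouse omitted, and 1 of the 10 passed by the criteria of the study. In PRF 50 vs. ND 102 genes were called with all 9 mice, 11 with no minimum, 177 by the criteria of the study and 4 to 71 with a mouse omitted. Of the 10 genes, 0 were called there with no minimum and 0 after quantile normalization, 2 passed by the criteria of the study, and 0 to 1 were called with a mouse omitted.

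Lowest and highest values with a mouse omitted, where the sign changed, were -0.15 and 0.23 for Acss2, -0.48 and 0.09 for Srebf1 and -0.10 and 0.09 for Mlxipl in PRF 50 vs. HFD. Those in HFD vs. ND were -0.50 and 0.07 for Acaca, -0.40 and 0.14 for Acacb, -0.36 and 0.23 for Acly, -0.45 and 0.08 for Me1, -0.87 and 0.01 for G6pdx, -0.08 and 0.36 for Cd68 and -0.00 and 0.26 for Spp1. Those in PRF 50 vs. ND were -0.19 and 0.38 for Srebf1 and -0.20 and 0.00 for Sox9. Fewer mice in a test also leave less power, and the cause of each change was not tested. A group left with 2 mice is assumed to vary like the other.

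With a minimum of 10 FPKM, Acaca and Acacb fell below it in PRF 50 vs. HFD (8 of 10 genes tested), 9 were tested in HFD vs. ND and 8 in PRF 50 vs. ND, so the missing genes have no value there. The alternatives for named genes and lists were chosen after seeing the data. No paired analysis was possible because each liver came from a different mouse and the labels give no pairs. Without counts, depth could not be equalized, and relative depth differed up to 1.60 times from HFD mouse 1.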
